A study of Homo sapiens with 4 samples.

Results

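MIR941-1, MIR941-2, MIR941-3, MIR941-4 and MIR941-5 are tandem gene copies on human chromosome 20 that encode a single mature microRNA (miRNA), miR-941. They were taken as every listed small RNA feature whose symbol starts with MIR941, and there were 5 of them among 7062 features, of which 1860 were miRNA features. Small RNA was sequenced from HEK293T cells, a human embryonic kidney line that the sample labels shorten to HEK293. Cells were transiently transfected with 1.5 µg of plasmid per well for either 52X T4A or 52X WT, and from the next day both groups were held for 72 h in 2.5 µg/ml α-amanitin, renewed daily. The plasmids encode versions of RPB1, the catalytic subunit of RNA polymerase II (Pol II), whose C-terminal domain (CTD) has 52 heptad repeats. In 52X WT the repeats are wild type, and in 52X T4A the threonine at the fourth heptad position is alanine. α-Amanitin was used to remove the cell's own Pol II and to select for transfected cells, and neither effect was measured in these counts. No samples without the toxin or without transfection were analysed here. Each group had 2 libraries of 50 bp single-end reads, described as biological replicates, and the comparison asked whether small RNA levels differ between the CTD versions.

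A miRNA is usually transcribed by Pol II within a longer RNA, cut out as a hairpin by Drosha, trimmed to a short duplex by Dicer and loaded as a single strand into Argonaute. Its seed, the stretch next to the 5′ end, pairs with target mRNAs. miR-941 is a human-specific miRNA known from brain and pluripotent cells, and the number of its gene copies varies between people. The copies lie within DNAJC5, which encodes cysteine string protein, a co-chaperone of synaptic vesicles. The files list small RNAs alone, so neither DNAJC5 mRNA nor mRNA targets of miR-941 were measured.

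The sequences are shown because they decide which copies a read can tell apart. RefSeq gave the same mature sequence for all 5 copies, of 23 bases, with the seed (bases 2 to 8) in capitals below. Among 2370 RefSeq mature miRNA names, only miR-941 carried this seed.
hsa-miR-941: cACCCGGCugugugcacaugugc
The hairpins of MIR941-1, MIR941-3, MIR941-4 and MIR941-5 were matched in RefSeq, and the mature part is in capitals in each.
MIR941-1: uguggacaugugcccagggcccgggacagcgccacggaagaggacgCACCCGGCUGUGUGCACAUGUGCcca
MIR941-3, MIR941-4 and MIR941-5: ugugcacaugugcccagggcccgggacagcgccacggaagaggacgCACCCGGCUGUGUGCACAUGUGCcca
These were 2 distinct hairpins with 98.6% identity and a single difference, G5C, with the base of MIR941-1 first and positions counted from 1 at the hairpin's 5′ end. The difference lies outside the mature part, so a read of miR-941 itself does not tell the copies apart. In MIR941-3, MIR941-4 and MIR941-5 the first 16 bases were the same as the last 16, and in MIR941-1 they differed by that same base.

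All copies lay on the plus strand and were 72 bases long in GRCh38. MIR941-1 (ENSG00000283206.1) was at chr20:63919449-63919520, MIR941-2 (ENSG00000216141.3) at chr20:63919505-63919576 and MIR941-3 (ENSG00000283513.1) at chr20:63919561-63919632. MIR941-4 (ENSG00000216195.3) was at chr20:63919756-63919827 and MIR941-5 (ENSG00000275842.1) at chr20:63919868-63919939. The first copy began 24323 bases after the start of DNAJC5 (chr20:63895126-63936011 in RefSeq), and RefSeq also placed the gene model LOC124904951 over all of them. Successive hairpins among the first 3 copies overlapped by 16 bases. A gap of 123 bases separated MIR941-3 from MIR941-4, and one of 40 bases separated MIR941-4 from MIR941-5. Because of the overlap, 13 bases of the mature sequence of MIR941-1 also lay within the hairpin feature of MIR941-2, and 13 bases of that of MIR941-2 within MIR941-3.

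The GRCh37 assembly, the genome sequence at hand, held 7 exact matches to the mature sequence, all on the plus strand of chromosome 20 between positions 62550848 and 62551289. The spacing of 5 of these was that of the listed copies, and the remaining 2, at 251 and 363 bases from the first, had no listed copy at the same distance. In GENCODE, 3 transcripts of DNAJC5 span the array. All 7 matches lay in the intron after exon 1 of the protein-coding transcript and of a transcript annotated for nonsense-mediated decay, and within exon 1 of another transcript of that kind. The mature sequence of a neighbouring match reached 13 bases into the hairpin of every copy other than MIR941-1, if the spacing in GRCh38 is that of GRCh37. The map of the copies shows this arrangement above the counts of each.

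**Figure D1:**
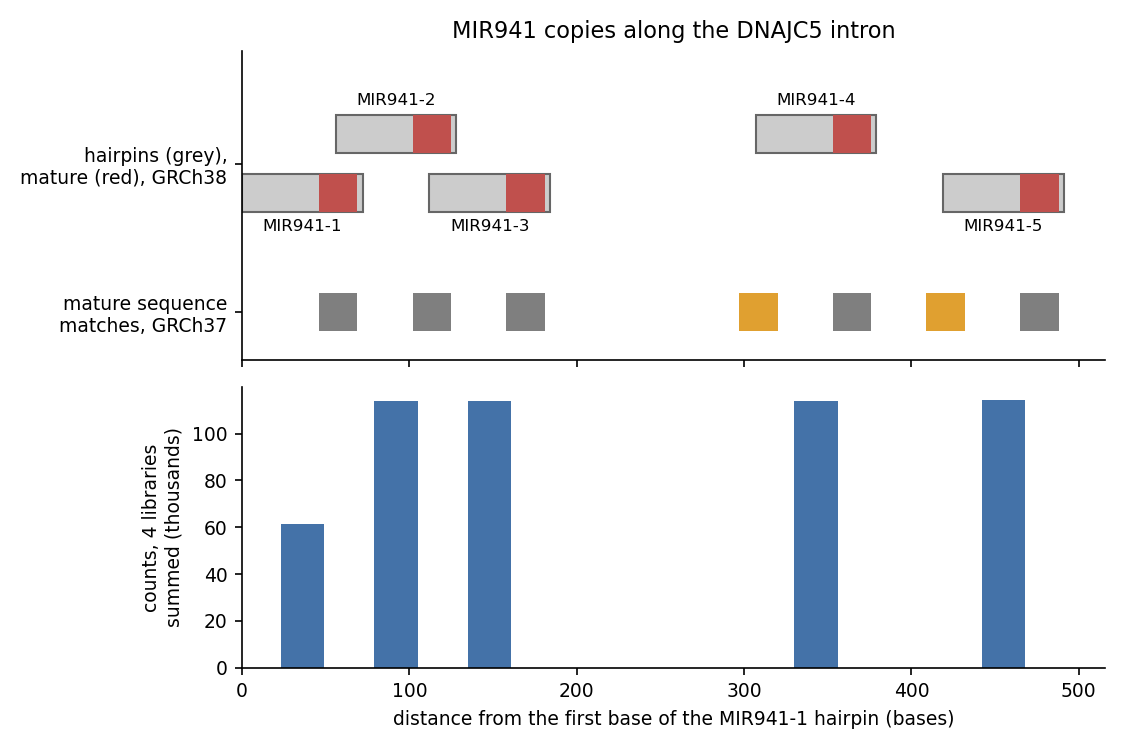
Upper panel: the hairpins of the 5 MIR941 copies (grey, mature part red, GRCh38) and the exact matches to the mature sequence in GRCh37 (grey where a listed copy has the same spacing, orange where none has), by distance in bases from the first base of the MIR941-1 hairpin. Lower panel: counts summed over the 4 libraries, in units of 1000, with MIR941-1 at 61530 and the other copies between 113810 and 114111.

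Library totals ranged from 16180790 to 27370127 counts, and the 5 most abundant features took 38.2% to 39.8% of each. Libraries of a group differed by more than counting error, since a chi-square test of their counts gave 404 per degree of freedom in 52X T4A and 648 in 52X WT, and all 4 were kept as separate samples. RPB1 mRNA is not a small RNA, so the transfected versions could not be checked in the counts. Of the miRNA lists of other cell types, the liver and blood lists stayed at or below 1.52 CPM (counts scaled to a common library size) summed in every library, and the neuron list at or below 12.1. None of the tested members of these lists was called by edgeR, 0 of 1 in blood and 0 of 3 in neuron, and the liver miRNA MIR122 was not tested. The muscle list summed to 96.6 and 81.6 CPM in 52X T4A and to 30.5 and 33.1 in 52X WT, without overlap. Among all 1480 tested features, the groups did not overlap in 40.1%. All 4 of its tested miRNAs had higher fitted values in 52X T4A, from 1.46 for MIR1-1 to 2.36 for MIR133A1 on the log2 scale. Of the 4, 0 passed the edgeR test (smallest adjusted p 0.186). MIR1-1 and MIR1-2 are copies with nearly the same counts, as are MIR133A1 and MIR133A2, so these are not 4 independent measurements. MIR133A1 had only 10 and 29 counts in 52X T4A and 2 and 3 in 52X WT. MIR1-1 and MIR1-2 were called in other fits, among them edgeR with the replicate number as a block (adjusted p = 0.030 for both), which called 0 MIR941 copies. The part of this list in the MIR941 values was not tested.

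MIR941 was abundantly sequenced in every library. The 52X T4A libraries held 13028 and 21791 counts of MIR941-1 and those of 52X WT held 10502 and 16209, given here and below in the order replicate 1, replicate 2. MIR941-5, the copy with the most counts, had 23713 and 40233 in 52X T4A and 19721 and 30444 in 52X WT. The sum of the 5 copies was 0.664% and 0.668% of all counts in 52X T4A, and 0.551% and 0.719% in 52X WT. On this scale the 52X WT libraries lay on either side of both 52X T4A libraries, and an exact two-sided permutation test of the sum over the 4 libraries gave p = 1. Since 1 read may have been counted at several copies, the sum can count a molecule more than once.

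In CPM with TMM-scaled library sizes, which adjust totals for composition, MIR941-1 was at 823 and 690.0 in 52X T4A and at 720 and 861 in 52X WT. MIR941-2 was at 1495 and 1277 in 52X T4A and at 1349 and 1604 in 52X WT. MIR941-3 was at 1494 and 1273 in 52X T4A and at 1351 and 1618 in 52X WT. In each of these copies 52X T4A replicate 2 was lowest and 52X WT replicate 2 highest, with the other libraries between them, so that the groups overlapped. MIR941-4 was at 1478 and 1276 in 52X T4A and at 1348 and 1616 in 52X WT. MIR941-5 was at 1498 and 1274 in 52X T4A and at 1351 and 1617 in 52X WT. The order of the libraries was the same for these copies, and it differed from the order of the shares of all counts, in which 52X WT replicate 1 was lowest. By CPM per kb of feature, MIR941-1 ranked between 59 and 64 among the 1860 miRNA features, and the other copies ranked between 40 and 47.

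**Figure D2:**
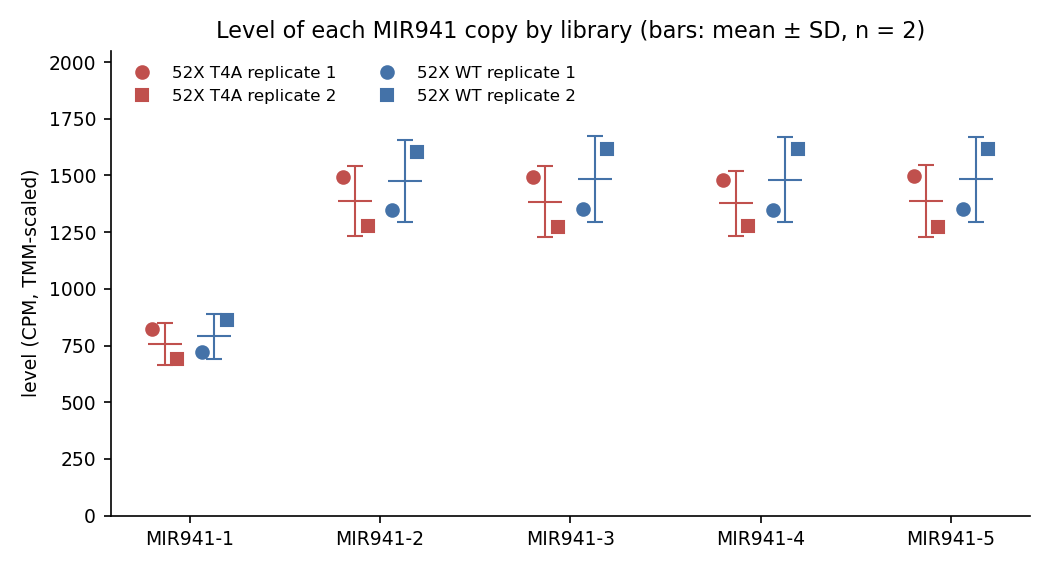
Level of each MIR941 copy in TMM-scaled CPM in the 2 libraries of 52X T4A (red) and the 2 of 52X WT (blue), circles for replicate 1 and squares for replicate 2, with horizontal bars at the mean ± SD. MIR941-1 lies between 690.0 and 861 CPM and the other copies between 1273 and 1618, and in every copy the groups overlap.

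The copies were not equal in counts. MIR941-2, MIR941-3, MIR941-4 and MIR941-5 were nearly the same, and the range of their counts in a library, divided by their mean, was 1.33% and 0.286% in 52X T4A and 0.208% and 0.875% in 52X WT. The counting SD of a single copy was 0.651%, 0.498%, 0.712% and 0.574% of the mean in the same order. The range was above this SD in 52X T4A replicate 1 and 52X WT replicate 2 and below it in the other libraries. A range over several counts is usually wider than the SD of a single count, and the copies may share reads. The comparison therefore does not show that MIR941-2 to MIR941-5 differ beyond counting error. MIR941-1, the first of the array, was at 0.552 and 0.541 times the mean of the other copies in 52X T4A and at 0.533 and 0.533 in 52X WT. It was thus near the same fraction of its neighbours in every library, although the mature sequence is identical. By the GRCh37 spacing, the MIR941-1 feature holds 1 match to the mature sequence and each other feature holds 1 match and 13 bases of another. The part of this in the ratio was not tested.

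The fraction was slightly higher in 52X T4A, at 0.546 ± 0.00755 against 0.533 ± 0.000273 in 52X WT (mean ± SD, n = 2). The difference of 0.0132 gave p = 0.333 in an exact two-sided permutation test, the smallest p that 2 libraries against 2 allow. The groups did not overlap, and the difference was 0.00791 without 52X T4A replicate 1 and 0.0186 without 52X T4A replicate 2. As a share of the counts of the 5 copies, MIR941-1 took 12.1% in 52X T4A replicate 1 (95% Wilson interval 11.9 to 12.3%) and 11.9% in 52X T4A replicate 2 (11.8 to 12.1%). The share was 11.8% in both 52X WT libraries, with intervals of 11.5 to 12.0% and 11.6 to 11.9%. The interval of each 52X T4A library overlapped those of both 52X WT libraries. The overlap was narrowest between 52X T4A replicate 1 (from 11.93%) and 52X WT replicate 2 (to 11.94%). Such overlap is not a test of a difference. These intervals leave out the spread between libraries and treat every count as a separate read. A read may have been counted at several copies, so the intervals may not give the counting error. Reads without molecular identifiers are also not independent molecules.

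**Figure D3:**
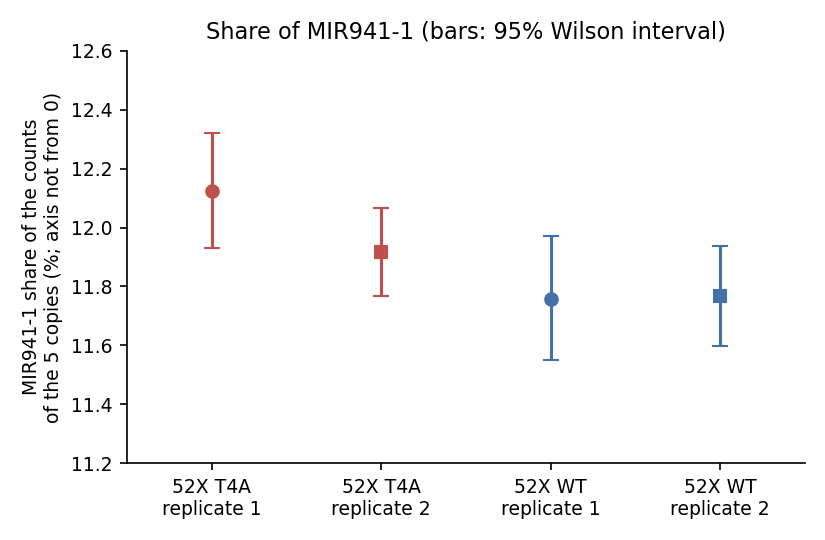
Share of MIR941-1 in the summed counts of the 5 MIR941 copies, in percent, for each library (red 52X T4A, blue 52X WT), with 95% Wilson intervals. The vertical axis does not start at 0, and the shares run from 11.8% in 52X WT to 12.1% in 52X T4A replicate 1.

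Other miRNAs with numbered copies gave the scale for this inequality. Of 66 such families, 13 had a copy with at least 1000 counts over the 4 libraries, and the ratio of the lowest to the highest copy was 0.539 in MIR941. Of the other 12 families, 9 had a ratio above 0.95 and 0 had one under 0.5. The lowest of them was MIR16 at 0.853, and MIR9, whose copies share a mature sequence as those of MIR941 do, was at 1.00 (both were chosen after their values were seen). MIR941 was the single family of the 13 with copies that overlap on the same strand. Families under the count limit also had ratios below that of MIR941. An example is MIR1285, whose copies share a mature sequence and do not overlap, at 0.517 (138 and 267 counts).

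In the comparison of 52X T4A with 52X WT, no MIR941 copy passed the test. MIR941-1 averaged 756 ± 94.0 CPM in 52X T4A against 790.2 ± 99.9 in 52X WT (mean ± SD, n = 2). In RNA from whole cultures, fewer cells with the miRNA and less of it per cell cannot be told apart. The edgeR quasi-likelihood fit gave a log2 fold change of −0.063 (SE 0.22, Benjamini-Hochberg adjusted p = 0.958). MIR941-2 was at 1386 ± 154 and 1477 ± 181 CPM, with a log2 fold change of −0.091 (SE 0.21, adjusted p = 0.917 in edgeR). The values of the other copies came close to it, at log2 fold changes of −0.10 for MIR941-3, −0.11 for MIR941-4 and −0.099 for MIR941-5, each with an SE of 0.21 and edgeR adjusted p-values from 0.905 to 0.917. The copies share their mature sequence, so these are not 5 independent measurements.

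The 95% intervals of the fold changes were wide. For MIR941-1 the fold of 52X T4A over 52X WT was 0.957 with an interval from 0.676 to 1.36. Over the other copies the intervals ran from 0.667 at the lowest to 1.31 at the highest, and each included changes in either direction. The count of called copies was 0 of 5, where 0.135% of the 1480 tested features were called in either direction (adjusted p under 0.05 and a fold above 1.5). An unadjusted p under 0.05 was reached by 0 copies and by 10.3% of tested features. The groups did not overlap in 0 copies and in 40.1% of tested features.

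**Figure D4:**
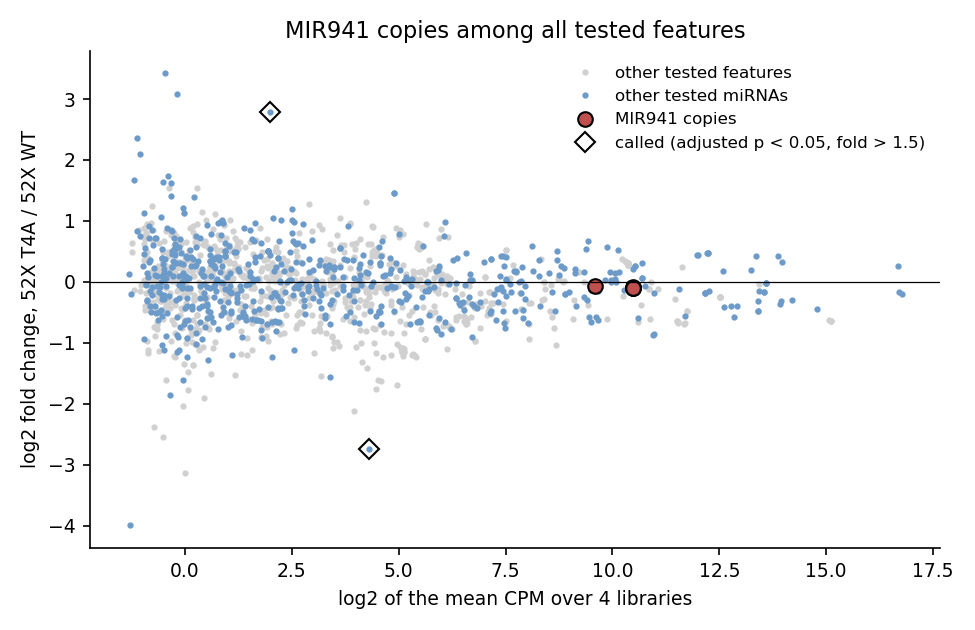
Log2 fold change of 52X T4A over 52X WT against the log2 of the mean CPM over the 4 libraries, for the 1480 tested features, with other miRNAs in blue, other features in grey, the 5 MIR941 copies in red (4 of them lie on top of each other) and the 2 called features as open diamonds. The MIR941 copies lie between −0.11 and −0.063, at high abundance.

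The median log2 fold change was −0.099 over the MIR941 copies, −0.021 over the 619 tested miRNAs and −0.045 over all tested features. The sign of the copies' values depended on the scaling. It was positive in all 5 copies with upper quartile factors (0.047 to 0.089) and with library size alone (0.058 to 0.10), settings in which the median of all features rose to 0.13 and 0.14. The copies thus stayed below that median in both settings. Leaving out a single library also moved the values. Without 52X WT replicate 1 the copies ran from −0.33 to −0.29 and without 52X T4A replicate 1 from −0.24 to −0.21. The medians of all features were −0.051 and −0.099 in the same order, so the copies lay below them. Without 52X WT replicate 2 the copies ran from 0.033 to 0.075, and without 52X T4A replicate 2 from 0.012 to 0.075. There the medians were −0.055 and −0.020, so the copies lay above them. No copy was called under any of these settings.

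**Figure D5:**
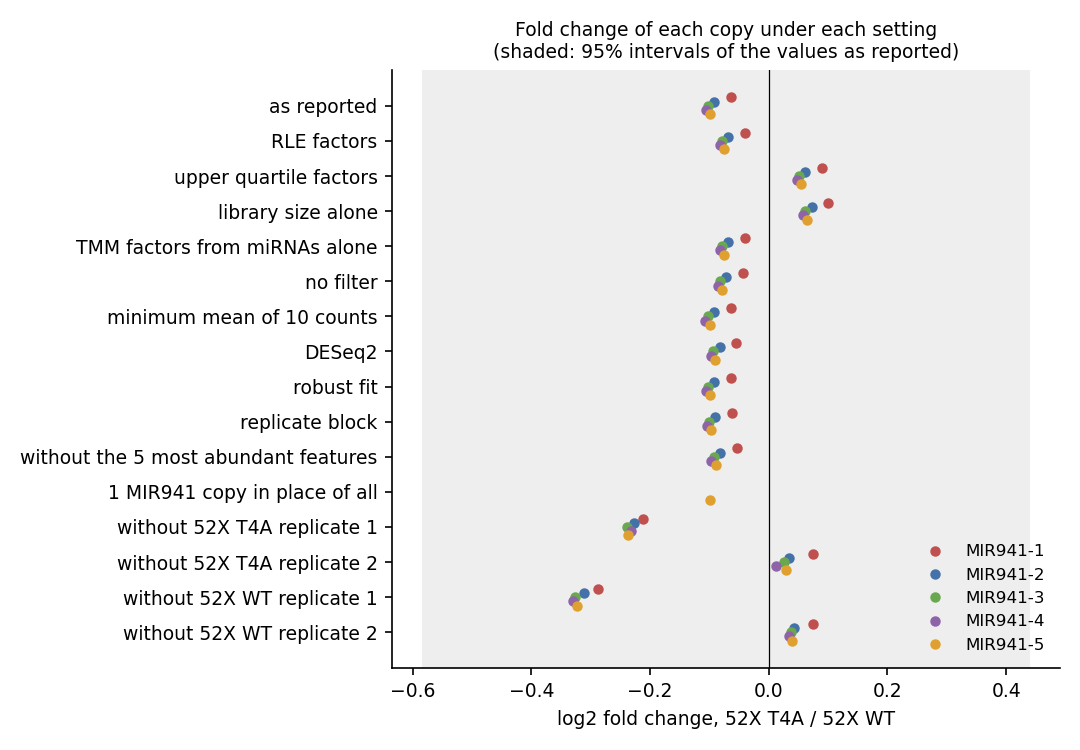
Log2 fold change of 52X T4A over 52X WT for each MIR941 copy (colours) under each setting (rows), with the 95% intervals of the reported values shaded. The points cross 0 for upper quartile factors, library size alone and the removal of replicate 2 of either group, and all stay within the shaded range.

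Around the array, 9 other listed features lay within 1 Mb and 6 had any count. RNU1-134P, a U1 small nuclear RNA pseudogene and the nearest of them, lies 10330 bases before the first copy within DNAJC5 and had 4 and 16 counts in 52X T4A and 2 and 5 in 52X WT. The host gene thus held 1 other listed feature, with counts far below those of the copies. Of the neighbours, 3 passed the filter and 0 were called.

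MIR4326 had 97.8 and 88.9 CPM in 52X T4A and 122 and 125 in 52X WT, without overlap, as in 40.1% of tested features. Its log2 fold change was −0.40 (SE 0.26, edgeR adjusted p = 0.552). MIR1914, 21526 bases after the last copy and on the minus strand, had 14 and 49 counts in 52X T4A and 25 and 29 in 52X WT. Its log2 fold change was −0.37 (SE 0.43, edgeR adjusted p = 0.768). MIR124-3, a copy of the neuronal miR-124, had 23 and 86 counts in 52X T4A and 61 and 42 in 52X WT, with a log2 fold change of −0.57 (SE 0.45, edgeR adjusted p = 0.628). The fitted values of all 3 were negative, as were those of the MIR941 copies, and all intervals included 0. MIR124-1 had nearly the same counts as MIR124-3, at 23 and 84 in 52X T4A and 58 and 41 in 52X WT. MIR124-2 was close to both. Copies of miR-124 lie on 2 chromosomes, so the reads counted at MIR124-3 may not come from this locus. With 1 library left out, MIR1914 ran from −0.85 (without 52X T4A replicate 2) to −0.081 (without 52X T4A replicate 1). MIR124-3 ran from −1.11 (without 52X T4A replicate 2) to −0.12 (without 52X WT replicate 1), and neither was called in these fits. Over chromosome 20 as a whole, 14 of 43 miRNAs other than the MIR941 copies were tested, 6 had values above 0 and 0 were called. Their median log2 fold change was −0.069. This list includes the 3 neighbours above and MIR133A2 of the muscle list, whose log2 fold change of 2.10 was its highest. It is therefore not a separate background.

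miR-941 is known from pluripotent cells, so 9 miRNAs typical of those cells were read beside it. They summed to 2.84 and 3.23 CPM in 52X T4A and 2.74 and 2.81 in 52X WT, far below any copy of MIR941. MIR372, of the miR-371 to miR-373 cluster, was the single one of them tested, with 22 and 54 counts in 52X T4A and 23 and 33 in 52X WT. Its log2 fold change was −0.091 (SE 0.39, edgeR adjusted p = 0.969). MIR941 was thus abundant in libraries with a low pluripotency list.

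Features whose levels followed those of the MIR941 copies most closely over the 4 libraries were found among 750 features averaging 100 counts or more. The measure was the root mean square difference of centred log2 CPM, with 1 added to CPM before the log2. The smallest difference was 0.0364 for MIR769, which was at 1235 and 1109 CPM in 52X T4A and 1188 and 1383 in 52X WT. RN7SL128P, a pseudogene of the signal recognition particle RNA, followed at 0.0368, then MIR5009 at 0.0421, MIR196B at 0.0432 and MIR532 at 0.0477. The median of all candidates was 0.311, and the copies themselves differed from their own mean by 0.00308 to 0.0162. With 4 libraries that share depth and scaling, this likeness is a description of these libraries.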

How the data were processed

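Small RNA was measured in 4 libraries. The authors deposited raw read counts per feature, without normalization, and the submitters' processing notes name cutadapt 4.6, Bowtie2 2.3.5.1, featureCounts 1.5.0 and hg38. Settings, annotation release and the handling of reads that match several places are not given in the sources used here, and how they were handled sets the counts of near-identical copies. Features were named by an identical RefSeq GRCh38.p14 position (4796) or a GENCODE v44lift37 identifier (1682), and 584 stayed unnamed. GENCODE identifiers found only 2 MIR941 copies, so RefSeq positions chose them.

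Counts were fitted with the edgeR 4.0.16 quasi-likelihood test in R 4.3.3, with TMM factors, filterByExpr (minimum count 10) and Benjamini-Hochberg adjustment over 1480 features. CPM used TMM-scaled library sizes. A feature was called at an adjusted p under 0.05 and a fold above 1.5. The test was also run on simulated counts, where it missed most changes of 2-fold and called most of 4-fold. Alternatives covered scaling, filters, DESeq2 1.42.0, a robust fit, the replicate block, abundant features, shared copies, the fold threshold and each library left out. Named features were the copies, neighbours within 1 Mb averaging 10 counts or more, the pluripotency list and 5 features most like the copies. Lists of muscle, liver, blood and neuron miRNAs were read beside them. The members and lists were chosen with earlier results of these data known. P-values rest on 2 libraries per group, and those of edgeR and DESeq2 also draw on the spread of the other features in the fit.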

Additional observations from a re-analysis of the deposited data

How the results depend on the processing

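Over 15 alternatives and 71 copy values, 0 MIR941 copies were called, 51 values kept their sign and 20 changed it, with edgeR or DESeq2 adjusted p-values from 0.742 to 1.00. With upper quartile factors the log2 fold changes were 0.089, 0.061, 0.051, 0.047 and 0.054 for MIR941-1 to MIR941-5, and with library size alone 0.10, 0.072, 0.062, 0.058 and 0.065. MIR372 also changed sign in these settings, to 0.074 and 0.10. With a library left out the ranges were −0.29 to 0.075 for MIR941-1, −0.31 to 0.042 for MIR941-2, −0.33 to 0.038 for MIR941-3, −0.33 to 0.033 for MIR941-4, −0.32 to 0.040 for MIR941-5 and −0.25 to 0.020 for MIR372. The 2 calls over all features became 9 with library size alone, 0 with factors from miRNAs alone (143 features had an unadjusted p under 0.05 in edgeR), 29 with no filter and 28 in DESeq2. They ran from 4 to 218 with a library left out, at 6 without 52X T4A replicate 1, 4 without 52X T4A replicate 2, 35 when 52X WT replicate 1 was left out and 218 when 52X WT replicate 2 was. Of the remaining alternatives, the replicate block is given next and the others gave 2 calls. The cause was not tested.

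The replicate block gave 18 calls over all features and 0 of the MIR941 copies. The muscle miRNAs MIR1-1 and MIR1-2 were called under it, and also with library size alone, with no filter, in DESeq2 and without either library of 52X WT. Over features, deviations from the group mean correlated at 0.104 between same-numbered libraries. With 2 libraries per group, both replicate numbers give the same value. No label says that the numbers pair libraries. The 2 libraries per group limited the precision of each fold change.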
